A study of Homo sapiens with 346 samples.

Results

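The small nucleolar RNA (snoRNA) genes described here are the genes of the deposited tables whose symbol starts with SNORA or SNORD and a number, and that had a TPM (an abundance divided by transcript length and scaled to a fixed total per cell) above 0 in at least 5 cells of either cell line. There were 229 such genes among 31463 listed, of which 94 were box H/ACA genes (SNORA) and the others box C/D genes (SNORD). A further 52 symbols of the same form were under that limit. Just inside it, 7 genes were seen in at most 5 cells of a line, with a highest TPM in any cell of 3.66 to 176.6. Just outside it, 7 symbols were seen in at most 4, with 45.3 to 98.01. Members were thus selected on detection, the number of cells with a TPM above 0 pooled over treatments. Since a rare gene passed through whichever group it was seen in, the values below are given as descriptions.

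The study asked how well methanol-fixed cells keep the RNA profile of live cells. Single cells of HCT-116, a human colorectal carcinoma line, and of cells labelled HepG2, known as a human hepatocellular carcinoma line, were taken live or after fixation in 80% methanol and storage for 1 week, and were made into Smart-seq2 libraries, which start from priming on poly(A) tails. Of HCT-116, 91 live and 92 fixed cells had values, and of HepG2, 68 and 83. Each line and treatment counts as 1 sample because the labels name no separate cultures, so SDs are over cells and no test between groups was made. By the study's methods live and fixed cells came from the same culture, and HepG2 was run in a pair of experiments, which cannot be separated here. Treatment and library batch cannot be told apart.

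Some features of the whole data set touch the values. The median depth was 2.5 M reads per live and 1.8 M per fixed HCT-116 cell, and 2.4 M and 2.0 M in HepG2. In the HepG2 table, 1 live and 1 fixed column held equal values, and 6 fixed columns were very similar to each other (Pearson's coefficients of 0.956 to 0.973). The results were recomputed without either set. In the cells labelled HepG2, 0 of 15 hepatocyte markers were above 1 TPM in 50% of cells or more, while 7 of 8 luminal breast epithelium markers were, among them ESR1 and GATA3. The name HepG2 is used below only as the label. In HCT-116, 1 of 8 intestinal markers, CDX2, passed that limit.

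snoRNAs are short non-coding RNAs of the nucleolus that guide chemical modification of ribosomal RNA. Box C/D RNAs bind fibrillarin (FBL), NOP56, NOP58 and SNU13 and direct 2′-O-methylation. Box H/ACA RNAs bind dyskerin (DKC1), NOP10, NHP2 and GAR1 and direct the conversion of uridine to pseudouridine, and a few members of either class act in the cleavage of the ribosomal RNA precursor instead. In human cells most are not transcribed from genes of their own. They lie within introns of a host gene, often one for a ribosomal protein or a translation factor, or a non-coding host such as GAS5 or the SNHG genes, and are trimmed from the excised intron. Most mature snoRNAs carry no poly(A) tail.

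The sequences below are of some of the members that carry the results that follow. By the patterns given here, neither box was found in SNORD88B and no C box in SNORD47, which are described later and not shown. They are those of the GRCh38 reference at the RefSeq gene coordinates, written 5′ to 3′ on the strand of the gene. In the C/D genes the capitals mark the C box (ATGATGA or GTGATGA starting in the first 15 bases) and the D box (CTGA in the last 12). In the H/ACA genes they mark the hinge box (ANANNA in the middle of the gene) and the ACA in the last 8 bases. SNORD80 (chr1:173864833-173864903, minus strand) lies in GAS5, SNORD31 (chr11:62853326-62853393, minus strand) in SNHG1, SNORD12C (chr20:49278945-49279023, plus strand) in ZFAS1 and SNORD14B (chr11:17075778-17075868, minus strand) in RPS13. SNORA70 (chrX:154400281-154400415, plus strand) lies in RPL10 and SNORA9 (chr7:44985378-44985510, minus strand) in SNHG15.
SNORD80: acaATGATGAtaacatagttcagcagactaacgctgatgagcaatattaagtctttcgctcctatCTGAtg
SNORD31: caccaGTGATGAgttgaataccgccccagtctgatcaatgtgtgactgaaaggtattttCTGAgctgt
SNORD12C: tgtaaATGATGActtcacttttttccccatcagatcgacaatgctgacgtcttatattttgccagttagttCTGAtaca
SNORD14B: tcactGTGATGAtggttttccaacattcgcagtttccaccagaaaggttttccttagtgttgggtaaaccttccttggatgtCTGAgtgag
SNORA70: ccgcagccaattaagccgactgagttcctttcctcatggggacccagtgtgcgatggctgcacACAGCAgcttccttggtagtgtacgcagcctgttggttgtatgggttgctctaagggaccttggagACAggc
SNORA9: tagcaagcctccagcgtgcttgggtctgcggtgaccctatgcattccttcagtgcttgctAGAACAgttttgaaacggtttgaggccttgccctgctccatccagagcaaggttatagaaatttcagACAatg

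The class names held in the sequences of the 199 members with a small RNA model in GENCODE. The C box was found in 56 C/D genes (50%) and in 0 of 87 H/ACA genes, and the D box in 91 (81.25%) against 2 (2.30%). The ACA was found in 79 of the 87 H/ACA genes (90.8%) and in 12 C/D genes (10.7%), and the hinge box, a much looser pattern, in 95.4% and 31.2%. H/ACA genes had a median length of 134.5 bases (86 to 250) and C/D genes of 78 (48 to 237). Of all 229 members, most lay in an intron of another gene, 62 within an exon of some annotated transcript, 19 partly in an exon, and 9 had no host gene. At 94 members, at least 1 stretch of 31 bases, the length kallisto matches, was also found in a spliced transcript of another gene, in most cases its host. Because the bases of such a stretch are identical, its reads from a snoRNA and from a host exon cannot be told apart. Smart-seq2 also does not keep the strand.

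One member, SNORA109, stood apart from all others. It had a TPM above 0 in every cell, with a mean in HCT-116 of 47320 ± 23418 (SD, n = 91) live and 41437 ± 21792 (n = 92) fixed, and of 78491 ± 40764 (n = 68) and 71536 ± 40353 (n = 83) in HepG2. The lowest, median and highest values over live HCT-116 cells were 4819, 45648 and 159251 TPM. By mean TPM it ranked 4 among all genes in 3 of the groups and 3 in fixed HepG2 cells, rested on a median of 1430 to 3820 reads per cell, and made up 96.1% to 99.3% of the summed TPM of all SNORA genes. Its live and fixed values overlapped nearly in full in both lines, with log2 ratios of fixed to live of -0.19 and -0.13. The gene (chrX:55183480-55183607, minus strand as read from its end boxes) is shown here because it aligns along its length to the mitochondrial 12S ribosomal RNA gene MT-RNR1. In the alignment, 86.9% of the columns were identical, with 14 mismatches and 3 gaps. The capitals mark the 58 bases in stretches of 31 that occur unchanged in chrM:999-1127.
SNORA109: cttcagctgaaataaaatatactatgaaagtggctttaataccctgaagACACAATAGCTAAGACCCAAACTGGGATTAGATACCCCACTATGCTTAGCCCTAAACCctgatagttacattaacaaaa
MT-RNR1 segment: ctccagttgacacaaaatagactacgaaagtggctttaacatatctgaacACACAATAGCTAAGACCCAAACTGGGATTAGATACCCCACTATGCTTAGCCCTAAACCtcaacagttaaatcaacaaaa

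The tables list no mitochondrial gene under an MT symbol, and reads of the shared stretch cannot be told apart. Whether the reads counted for SNORA109 come from the X chromosome or from mitochondria was not tested. The summed TPM of 10 MTRNR2L genes, nuclear copies of the neighbouring mitochondrial 16S ribosomal RNA gene, was 18207 ± 4855 in live HCT-116 cells. Its Spearman coefficient with SNORA109 over the cells of a group was 0.465 and 0.393 in live and fixed HCT-116 cells and 0.295 and 0.030 in HepG2. Sums of SNORA genes are therefore given with and without SNORA109.

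Fixed cells held fewer detected snoRNA genes of both classes in both lines, by 38.3% to 48.9% of the live mean. In HCT-116, the number of H/ACA genes with a TPM above 0 was 25.2 ± 6.90 per live cell (median 24, range 14 to 44) and 15.5 ± 4.94 per fixed cell (median 15, range 5 to 31), a mean 38.3% lower. The number of C/D genes was 40.5 ± 12.3 (median 40, 16 to 64) and 23.6 ± 7.32 (median 23, 8 to 41), or 41.8% lower. In HepG2, H/ACA genes numbered 19.3 ± 5.56 (8 to 32) in live and 11.5 ± 5.10 (3 to 29) in fixed cells, and C/D genes 29.97 ± 9.31 (5 to 54) and 15.3 ± 7.88 (4 to 55). The mean differences exceeded the SD over cells in each of these comparisons, but the ranges overlapped. Fixed cells also had fewer genes of any kind (12029 ± 919 per live and 10506 ± 1337 per fixed cell of HCT-116, 13858 ± 1142 and 12118 ± 1691 in HepG2). Without the 6 similar columns, the HepG2 differences were -8.40 H/ACA and -15.1 C/D genes, and without the equal columns -7.94 and -14.9. As a share of all genes detected in the cell, snoRNA genes made up 0.542% (live) and 0.368% (fixed) in HCT-116, and 0.354% and 0.216% for HepG2.

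**Figure D1:**
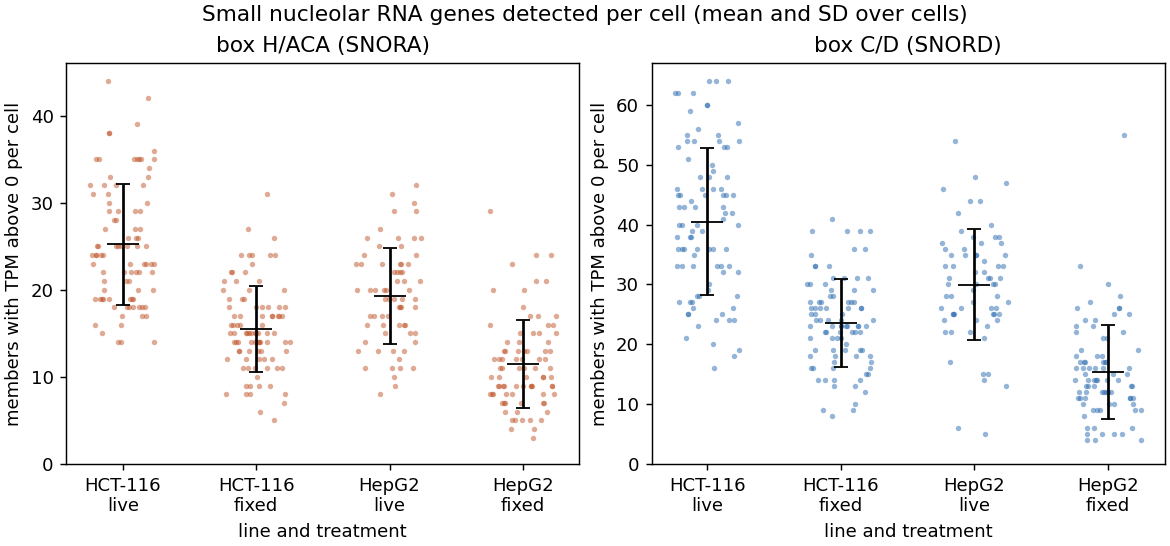
Number of box H/ACA (left) and box C/D (right) genes with a TPM above 0 in each cell, by line and treatment; points are cells and bars the mean and SD over cells. Fixed cells averaged 15.5 H/ACA genes against 25.2 in live HCT-116 cells, and 11.5 against 19.3 in HepG2, and 1 fixed HepG2 cell reached 55 C/D genes.

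The number of members in a cell went with its depth. Over HCT-116 cells, the Spearman coefficient between total reads and the number of C/D genes was 0.667 in live and 0.616 in fixed cells. It was 0.097 and 0.351 in HepG2, where depth varied less, and cells of a group share their batch. When the reads of each cell were thinned to 0.5 M, which left out 3 fixed HCT-116 cells, H/ACA genes numbered 12.8 ± 3.47 and 9.62 ± 2.87 in live and fixed HCT-116 cells and 9.69 ± 3.52 and 5.81 ± 2.82 in HepG2. The C/D genes numbered 18.3 ± 5.84 and 12.9 ± 3.67, and 11.9 ± 5.52 and 6.84 ± 4.47. At equal total reads, fixed cells thus held fewer members too, with differences about as large as the SD over cells. The median share of reads assigned to transcripts still differed, at 88% and 83.6% in live and fixed HCT-116 cells and 75.7% and 77.3% in HepG2.

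The reads behind both classes were few. Leaving out SNORA109, all H/ACA genes together held 100.5 ± 52.4 reads in a live and 68.1 ± 41.4 in a fixed HCT-116 cell, and 73.2 ± 30.7 and 26.4 ± 18.2 in HepG2. C/D genes held 138.96 ± 87.1 and 88.1 ± 53.97 reads, and 80.5 ± 38.5 and 35.95 ± 27.98. One read was worth a median of 35.4 TPM in a C/D gene and 19.4 TPM in an H/ACA gene of HCT-116. The summed TPM of the H/ACA genes without SNORA109 was 1915 ± 579 per live and 1387 ± 512 per fixed cell of HCT-116, 27.6% lower, and 1279 ± 526 and 514 ± 448 in HepG2, 59.8% lower. That of the C/D genes was 5009 ± 2058 and 3956 ± 1479 (21.03% lower) and 2442 ± 1151 and 1397 ± 1333 (42.8% lower). On the log2 scale of the summed TPM + 1 per cell, fixed minus live was -0.17 and -0.16 for H/ACA genes with SNORA109, -0.50 and -1.43 without it, and -0.30 and -0.94 for C/D genes, in HCT-116 and HepG2 in turn. In HCT-116 the C/D difference was below the SD over cells (0.65 in live and 0.52 in fixed cells), so the sums of the groups largely overlapped there.

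Gene by gene, members more often had a lower mean level in fixed cells than a higher one. The measure was the log2 ratio of mean TPM + 1 in fixed cells to that in live cells, over genes with a TPM above 0 in at least 5 columns of the table. In HCT-116, 22 of 90 H/ACA genes (24.4%) and 35 C/D genes (27.1% of those seen) were at least 2-fold lower in fixed cells, against 2.62% of all genes, and 6 and 8 were at least 2-fold higher, against 0.413%. In HepG2, 36 of 80 (45%) and 52 (42.3%) were lower, against 3.12%, and 1 and 8 higher, against 1.06%. The median log2 ratio was -0.60 for H/ACA and -0.32 for C/D genes in HCT-116, with 0.01 over all genes, and -0.70 and -0.71 in HepG2, with -0.01 over all genes.

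These backgrounds are not on equal terms, because 1 read of a long gene is worth far less than 1 TPM and the added 1 TPM then shrinks its ratio. On CPM (a gene's reads as a share of all reads, not divided by length, summed over a gene's transcripts, with 0.02 added, a setting chosen after the data were seen) 10.9% of all genes in HCT-116 and 16.3% in HepG2 were at least 2-fold lower in fixed cells. The members' shares on that scale were 18.9% (H/ACA) and 23.3% (C/D) in HCT-116 and 39.2% and 44.2% in HepG2. On the same scale, 8.51% and 8.21% of all genes were 2-fold higher, with 8 and 9 members in HCT-116 and 2 and 8 in HepG2. The members' shares past 2-fold lower were thus closer to the background on this scale, and above it in both classes and lines. Genes seen in 10% to 30% of live cells had a higher background, at 15.1% in HCT-116 and 28.1% in HepG2. The members' shares there were 22.2% and 25%, and 40.5% and 58.7%. At 30% to 50% of live HCT-116 cells they were 15% (3 of 20) and 18.2% (4 of 22), against 11.2%. At 50% to 80% they were 50% (4 of 8) and 46.2% (12 of 26), against 11.7%.

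The share of cells with a TPM above 0 does not depend on that scale, though it depends on depth. It was at least 20 percentage points lower in fixed cells for 20 of 90 H/ACA (22.2%) and 33 C/D genes (25.6%) in HCT-116 (8.47% of all genes) and for 16 of 80 (20%) and 26 (21.1%) in HepG2 (12.6% of all genes). No member was at least 20 points higher, against 0.0851% and 0.403% of all genes. Genes seen in 50% to 80% of live cells can be set side by side. In that range the median difference was -31.6 points for 8 H/ACA, -28.9 for 26 C/D and -13.6 for all 3170 genes of HCT-116, and -33.5, -39.4 and -15.4 points for 6, 13 and 4007 genes of HepG2. The gaps were smaller at 10% to 30% of live cells, a range that held more members. There the medians were -9.96 (27 H/ACA), -8.92 (40 C/D) and -4.59 points (all genes) in HCT-116. In HepG2 they were -7.55 (38), -11.2 (47) and -6.54, with H/ACA genes close to all genes.

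**Figure D2:**
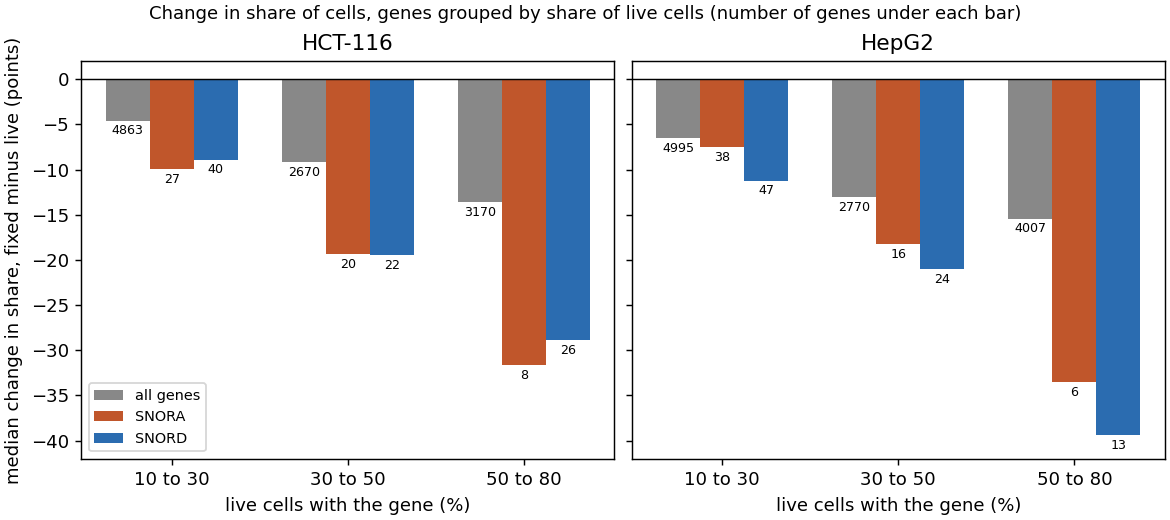
Median difference in the share of cells with a TPM above 0, fixed minus live in percentage points, for all genes and for both classes of snoRNA genes within 3 ranges of the share of live cells; the number of genes stands under each bar. In each range and line the snoRNA bars reach lower than the bar of all genes, at -31.6 against -13.6 points for H/ACA genes seen in 50% to 80% of live HCT-116 cells.

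Of the 193 members in at least 5 cells of both lines, 56 of 76 H/ACA and 93 C/D genes were seen in a smaller share of fixed than of live cells in both, and 11 in a larger share in both. Of all genes, 59.5% were in a smaller and 4.16% in a larger share in both. Those at least 2-fold lower in both lines numbered 32, which is 60.4% of the 53 lower in HCT-116 and 38.1% of the 84 lower in HepG2. Of all genes, 1.48% were 2-fold lower in both lines, or 55.5% of those lower in HCT-116 and 46.4% of those lower in HepG2, and 0.0682% were 2-fold higher. SNORD5, in an intron of TAF1D, was the 1 member 2-fold higher in both lines (log2 ratios of 1.35 and 1.58). It was seen in 23.1% of live and 27.2% of fixed HCT-116 cells and in 5.88% and 13.3% in HepG2. Its mean in live HepG2 cells was only 2.21 TPM. With the mean of log2(TPM + 1) as the summary, 0 C/D genes were 2-fold higher in HCT-116.

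**Figure D3:**
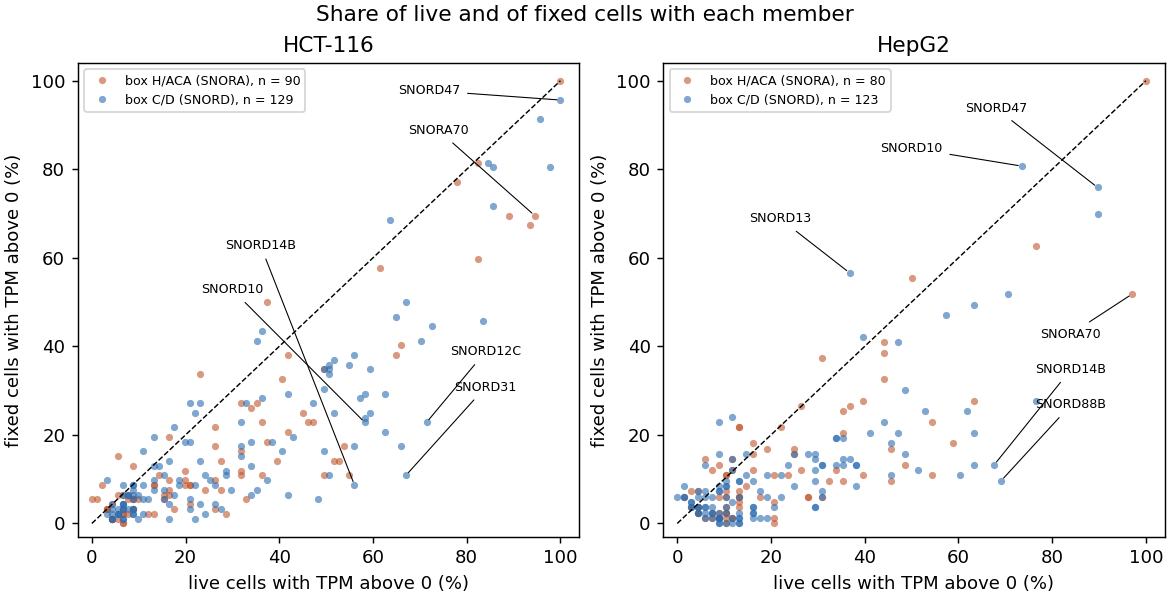
Share of fixed against share of live cells with a TPM above 0 for each snoRNA gene, in percent, for HCT-116 (left) and HepG2 (right); the dashed line marks equal shares. Most points lie under the line, SNORA70 at 97.1% of live and 51.8% of fixed HepG2 cells among them, and SNORD10 lies above it in HepG2 and below it in HCT-116.

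SNORA70, an H/ACA RNA within RPL10, was after SNORA109 the most widely seen of its class, and was among the H/ACA genes with the largest differences in share of cells between live and fixed cells. In live HepG2 cells it ranged from 0 to 937 TPM with a median of 308, and in fixed cells from 0 to 266. Its mean was 347 ± 233 and 35.3 ± 53.4 TPM, a log2 ratio of -3.26, and it was seen in 97.1% (95% exact binomial interval 89.8 to 99.6%, counting error only) and 51.8% (40.6 to 62.9%) of the cells. In HCT-116 the means were 273.7 ± 187.99 and 114.8 ± 129.98 TPM, a log2 ratio of -1.25, with 94.5% and 69.6% of the cells. In HepG2 the median of the live cells thus lay above every fixed cell, with overlap at the low end, while RPL10 itself was at 411 ± 145.8 TPM live and 513 ± 139.4 TPM fixed in that line.

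SNORD88B, for which no host gene was found and whose sequence lies whole within transcripts of C19orf48P, had the largest mean difference in share over both lines among the C/D genes. It was seen in 65.9% (55.3 to 75.5%) of live and 17.4% (10.3 to 26.7%) of fixed HCT-116 cells and in 69.1% (56.7 to 79.8%) and 9.64% (4.25 to 18.1%) in HepG2. SNORD14B, in RPS13, was at 56.04% and 8.70% in HCT-116 and at 67.6% and 13.3% in HepG2, with mean levels of 85.3 ± 99.8 and 7.26 ± 22.5 TPM in the latter. SNORD12C, in ZFAS1, was at 71.4% and 22.8%, and at 60.3% and 10.8%, with mean levels of 135.01 ± 160.2 and 30.6 ± 67.5 TPM in HCT-116. None of these intervals of live and fixed shares overlapped, but these members were picked for their large differences in those same shares. The gaps are therefore a description and no support for a difference. The intervals also leave out any difference between cultures or batches.

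Among the H/ACA genes, both members of RPL27A stood in the same list. SNORA3B was seen in 52.7% of live and 14.1% of fixed HCT-116 cells and in 54.4% and 10.8% in HepG2, and SNORA3A in 49.5% and 10.9%, and in 45.6% and 9.64%. SNORA9, in SNHG15, was at 54.9% and 10.9%, and at 48.5% and 13.3%, with log2 ratios of mean TPM + 1 of -2.60 and -3.39. Its host SNHG15 was at 0.12 and 0.18. SNORA44, in SNHG12, was seen in 32.97% of live and 5.43% of fixed HCT-116 cells. In HepG2 it was seen in 10.3% of live and 0 of 83 fixed cells, which by a floor of 3 counts allows a share of up to 3.61%. SNORA71B, in SNHG17, was likewise in 20.6% of live and 0 of 83 fixed HepG2 cells, and in 7.69% and 2.17% in HCT-116. SNORA52 (RPLP2) was at 26.4% and 3.26% in HCT-116 and at 8.82% and 1.20% in HepG2. Further C/D genes 2-fold lower in both lines included SNORD83A (RPL3; log2 ratios of -2.97 and -1.90) and SNORD20 (NCL; -2.41 and -2.31).

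Among the other widely seen members, the differences ran from near 0 to more than 2-fold. SNORD47, in an exon of GAS5, was in 100% of live (median 379 TPM, highest 1281) and 95.7% of fixed HCT-116 cells and in 89.7% and 75.9% in HepG2, with mean levels of 433 ± 275 and 389 ± 349 TPM, and 255 ± 217 and 167.5 ± 246.5 TPM. SNORD80, also in GAS5, was at 97.8% and 80.4%, and at 89.7% and 69.9%. SNORD104 and SNORA50C, neighbours in SNHG25, were close to equal in live and fixed HCT-116 cells, SNORD104 at 95.6% and 91.3% and SNORA50C at 82.4% and 81.5%. In HepG2 they stood at 63.2% and 49.4%, and at 50% and 55.4%. SNORA67, in an exon of EIF4A1, was at 82.4% and 59.8%, and at 76.5% and 62.7%, and SNORA61, in SNHG12, at 93.4% and 67.4%, and at 63.2% and 27.7%. Differences in mean level of SNORD47, SNORD80 and SNORA50C were smaller than their SDs over cells in both lines.

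Members whose share was higher in fixed cells of both lines differed by at most 10.6 points in a line, and those with the largest mean differences are given here. Among the H/ACA genes, SNORA104 (ADGRE3) was in 23.1% of live and 33.7% of fixed HCT-116 cells and in 10.3% and 10.8% in HepG2, SNORA46 in 2.20% and 8.70%, and 4.41% and 7.23%, and SNORA57 in 16.5% and 19.6%, and 2.94% and 7.23%. SNORA70B was in 0 of 91 live HCT-116 cells, which by that floor allows up to 3.30%, and in 5.43% of fixed ones. Among the C/D genes, SNORD23 was in 36.3% and 43.5%, and in 8.82% and 15.7%, SNORD45C in 35.2% and 41.3%, and in 1.47% and 8.43%, and SNORD89 in 3.30% and 9.78%, and in 1.47% and 6.02%. The exact binomial intervals of the live and fixed shares overlapped for each of these members wherever both are given.

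Members of a single host did not share one value. GAS5 holds 10 C/D genes and SNORA103. From live to fixed HCT-116 cells the share of cells went from 84.6% to 81.5% for SNORD76, from 85.7% to 71.7% for SNORD79 and from 49.5% to 16.3% for SNORD78, and the log2 ratios of the 11 members ran from -1.54 to 0.61 with a median of -0.19. GAS5 itself was in every cell, at 373 ± 129.9 and 506 ± 227 TPM. In HepG2 the 11 ratios ran from -2.11 (SNORD44, in 51.5% and 12.05% of the cells) to 0.98, with GAS5 at 404 ± 185.8 and 472 ± 237 TPM. In SNHG1, which holds 8 C/D genes, SNORD25 was in 85.7% of live and 80.4% of fixed HCT-116 cells, whereas SNORD31 was in 67.03% (56.4 to 76.5%) and 10.9% (5.34 to 19.1%) and SNORD30 in 48.4% and 5.43%. The last 2 had log2 ratios of -3.08 each, with SNHG1 at -0.26. In HepG2 SNORD31 was in 41.2% and 20.5% of the cells (log2 ratio -0.67). All 8 SNHG1 members lie in an exon, as do SNORD44, SNORD47, SNORD79, SNORD80 and SNORD81 of GAS5, and share their whole sequence with the spliced host, so that their values may hold host reads. In TAF1D, the 6 H/ACA genes and SNORD5 and SNORD6 had a median log2 ratio of 0.59 in HCT-116 and of -0.08 over the 7 seen in at least 5 HepG2 cells.

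**Figure D4:**
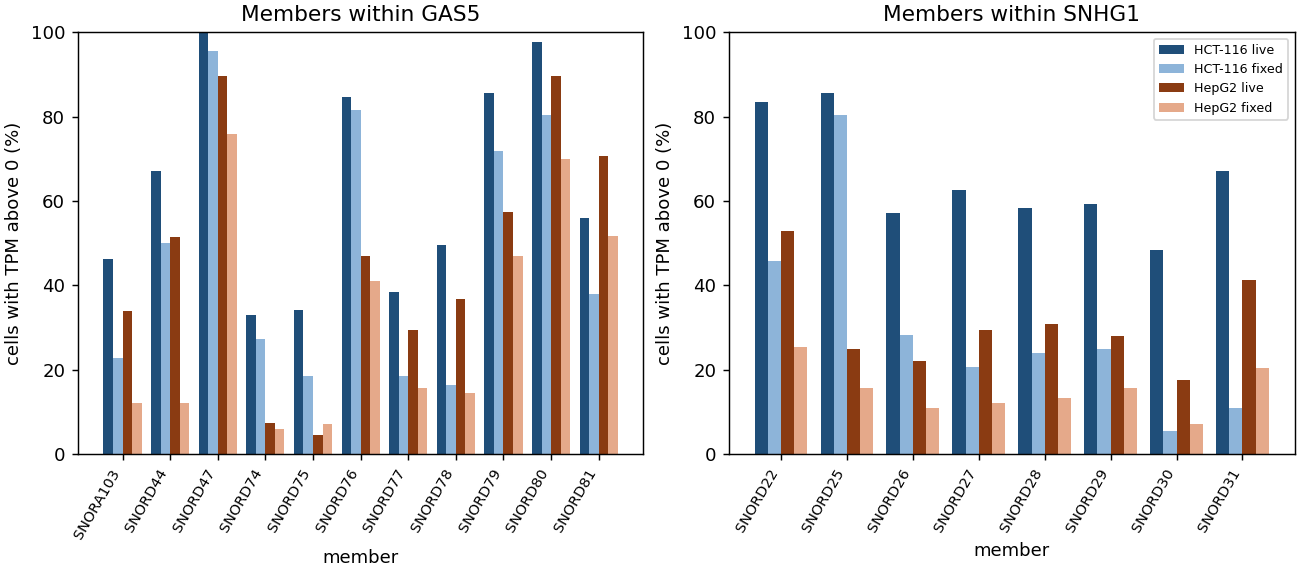
Share of cells with a TPM above 0, in percent, for the snoRNA genes of GAS5 (left) and SNHG1 (right) in live and fixed cells of both lines. SNORD47 and SNORD80 are seen in most cells of every group, while SNORD30 and SNORD31 are in 48.4% and 67.03% of live and 5.43% and 10.9% of fixed HCT-116 cells.

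Host genes as a group were slightly higher in fixed cells, where most members were lower. For 193 members of HCT-116 with a listed host, the host genes had a median log2 ratio of 0.31, with 83 of them (81.4%) higher in fixed cells, against 54.3% of all genes and 65.3% of genes seen in at least 80% of live cells. Of these hosts 0 were at least 2-fold lower and 1 at least 2-fold higher, where 2.62% and 0.413% of all genes were. The member's ratio was below that of its host for 79.3%. In HepG2 the 94 hosts had a median of 0.33, with 78.7% higher in fixed cells (48.2% of all genes and 60.8% of those in at least 80% of live cells) and 0 at least 2-fold lower (3.12% of all genes), and 83.98% of 181 members lay below their host. Across members, the Spearman coefficient between both ratios was 0.089 and 0.139, where members of 1 host share its value. Across the cells of a group, members seen in at least 20% of them had median coefficients with their host of 0.12 to 0.15. The highest was 0.75, for SNORA61 and SNHG12 in live HCT-116 cells. That member lies in an intron and shares no stretch of 31 bases with the spliced host. In live cells, members sharing such a stretch with other transcripts had higher medians than the rest. These were 0.202 against 0.104 in HCT-116 and 0.178 against 0.098 in HepG2. In fixed cells they were 0.118 against 0.110, and 0.146 against 0.145.

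**Figure D5:**
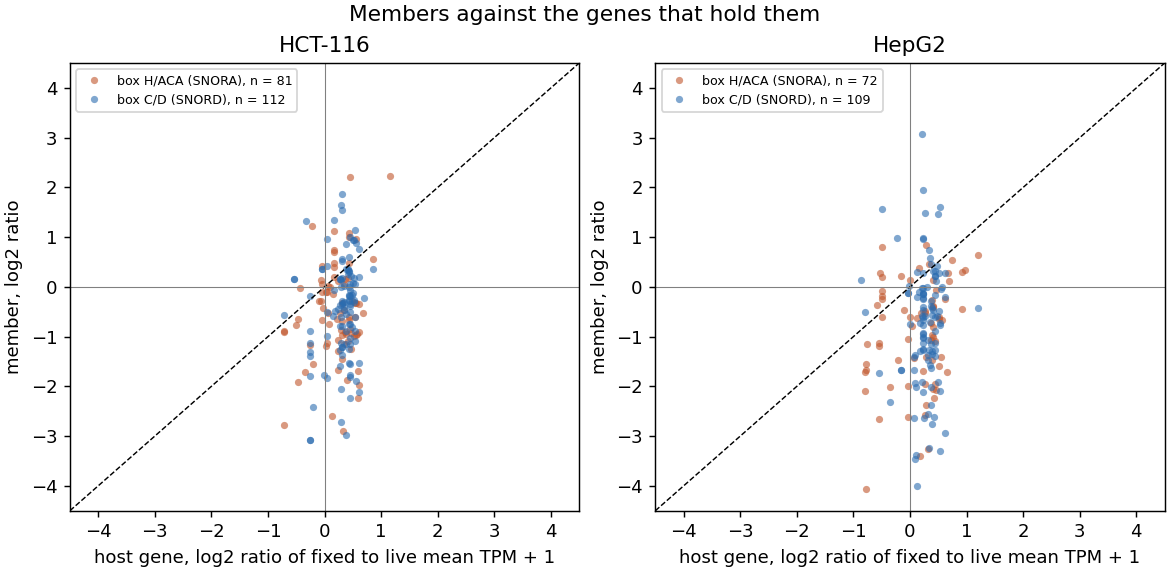
Log2 ratio of mean TPM + 1 in fixed to live cells for each snoRNA gene (vertical axis) against that of its host gene (horizontal axis) in HCT-116 and HepG2; the dashed line marks equal ratios. Host ratios lie near 0 with medians of 0.31 and 0.33, while members spread over several log2 units, with 79.3% and 83.98% below the line.

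The median ratio was negative for members with and without sequence shared with other transcripts. H/ACA genes with no shared stretch of 31 bases had a median log2 ratio of -0.63 in HCT-116 (58 genes) and -0.80 in HepG2 (49 genes), and those with one of -0.38 (32) and -0.40 (31). For C/D genes the medians were -0.34 (70) and -0.59 (68) without, and -0.32 (59) and -0.77 (55) with a shared stretch. Over members seen in at least 20% of live cells, the ratio had Spearman coefficients with gene length between -0.07 and -0.01 in both classes and lines. With GC content they were -0.33 (45 genes) and -0.35 (35) for H/ACA genes and -0.22 (74) and 0.02 (52) for C/D genes, in HCT-116 and HepG2 in turn, weak values over sparse counts.

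Counts past 2-fold among the protein partners of snoRNAs were near those of all genes, of which 2.62% were lower and 0.413% higher in HCT-116 and 3.12% and 1.06% in HepG2. In both lines, 0 of 4 C/D core proteins, 0 of 4 H/ACA core proteins, 0 of 10 assembly factors and 0 of 8 factors of intron debranching and 3′ end trimming were past 2-fold in either direction. Fibrillarin, the methyltransferase, was lower in fixed cells, at 169.1 ± 50.9 and 106.5 ± 40.8 TPM in HCT-116 and 120.7 ± 34.4 and 66.2 ± 35.1 TPM in HepG2 (log2 ratios of -0.66 and -0.86). Dyskerin, the pseudouridine synthase, was at 0.44 and 0.13, and NOP10 at 0.42 and 0.64. The lists had medians, in the order above, of 0.17, 0.32, 0.30 and 0.39 (HCT-116) and of 0.11, 0.24, 0.13 and 0.28 (HepG2). Of the SNHG genes and a few other hosts, 0 of 24 were 2-fold lower in HCT-116 and 0 of 25 in HepG2, where 2 were higher.

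Other short RNA genes gave mixed values, but several classes were 2-fold lower in fixed cells at shares near those of snoRNA genes. The snoRNA shares were 24.4% (H/ACA) and 27.1% (C/D) in HCT-116, and 45% and 42.3% in HepG2. Of the SCARNA genes, whose RNAs guide modification in Cajal bodies, 5 of 24 (20.8%) were 2-fold lower in fixed HCT-116 and 6 of 18 (33.3%) in fixed HepG2 cells. Of the RNU genes (spliceosomal RNAs), 4 of 20 (20%) and 9 of 20 (45%) were, and of the microRNA genes 40 (25.97%) and 63 (41.4%). Of the RNY and VTRNA genes, 0 of 4 and 0 of 3 were 2-fold lower in either line. Of all genes, 2.62% and 3.12% were, but on mean TPM + 1 short genes and all genes are not on equal terms. Shares on CPM are not given for these lists. In the other direction, 1 SCARNA, 2 RNU and 19 microRNA genes were 2-fold higher in fixed HCT-116 cells, beside 0.413% of all genes. In HepG2 the counts were 0, 0 and 10, beside 1.06% of all genes. The 7SL RNA genes of the signal recognition particle were higher in fixed cells. In HCT-116, RN7SL2 was at 4.5 ± 7.07 TPM live and 59.7 ± 49.1 TPM fixed, a log2 ratio of 3.46, and at 7.88 ± 12.9 and 56.6 ± 60.7 TPM in HepG2, a ratio of 2.70. It was seen in 41.8% and 92.4%, and in 54.4% and 85.5% of the cells. RMRP, the RNA of the RNase MRP that cuts the ribosomal RNA precursor, differed between lines, at 16.3 ± 26.1 and 4.6 ± 10.4 TPM in HCT-116 and at 4.4 ± 7.04 and 10.1 ± 10.8 TPM in HepG2.

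Between the lines, cells labelled HepG2 held fewer members than HCT-116 cells in both treatments. The mean difference was -5.91 H/ACA and -10.5 C/D genes per live cell and -4.06 and -8.23 per fixed cell, although HepG2 cells had more genes detected in all. At 0.5 M reads per cell they were -3.08 and -6.38 in live and -3.81 and -6.04 in fixed cells, and over members sharing no stretch of 31 bases, at full depth, -3.46 and -3.48, and -2.12 and -2.18. At full depth over all members, the differences in live cells were below the SDs over HCT-116 cells of 6.90 and 12.3. They were above the SDs over HepG2 cells of 5.56 and 9.31. In live cells, 28 of 93 H/ACA (30.1%) and 59 C/D genes (44.7%) were at least 2-fold lower in HepG2 (8.05% of all genes), and 9 and 8 were higher (9.27%). In fixed cells, 42 and 64 were lower (7.67%) and 8 and 4 higher (9.4%). These counts too rest on mean TPM + 1, where members and all genes are not on equal terms. Shares on CPM are not given between lines. The tables of the lines were quantified separately in the same way.

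SNORD25 of SNHG1 had the largest difference between lines in share of cells. It was in 85.7% of live and 80.4% of fixed HCT-116 cells and in 25% and 15.7% of HepG2 cells, at 231.7 ± 178.3 and 203.3 ± 173.4 TPM against 22.1 ± 55.9 and 20.3 ± 53.2 TPM. SNHG1 itself was at 116.1 ± 62.5 and 96.4 ± 59.3 TPM in HCT-116 and 36.4 ± 22.9 and 42.7 ± 52.2 TPM in HepG2. SNORA12 (CWF19L1) was in 89.01% and 69.6% of HCT-116 against 35.3% and 25.3% of HepG2 cells. SNORA18 (TAF1D), SNORA61, SNORD76 and SNORD49A (SNHG29) were also lower in HepG2 in both treatments, with log2 ratios of HepG2 to HCT-116 between -1.76 and -3.64. Higher in HepG2 were SNORD10, an intronic member of EIF4A1, and SNORD13, which has no host gene and guides acetylation of 18S ribosomal RNA.

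In mean level and share of cells, SNORD10 and SNORD13 were lower in fixed than live HCT-116 cells and higher in fixed HepG2 cells. Their difference between lines was larger in fixed cells. SNORD10 was in 58.2% (47.4 to 68.5%) of live and 22.8% (14.7 to 32.8%) of fixed HCT-116 cells, and in 73.5% (61.4 to 83.5%) and 80.7% (70.6 to 88.6%) in HepG2. Its mean level was 31.2 ± 40.8 and 7.73 ± 20.8 TPM in HCT-116 and 39.7 ± 39.2 and 49.7 ± 51.7 TPM in HepG2. SNORD13 was in 24.2% and 10.9% of HCT-116 cells and in 36.8% and 56.6% of HepG2 cells, at 9.61 ± 22.9 and 4.98 ± 17.03 TPM and at 11.2 ± 17.9 and 26.4 ± 38 TPM. Differences in mean level between live and fixed cells were below the SDs for SNORD10 in HepG2 and for SNORD13 in both lines. The HepG2 intervals of SNORD10 overlapped. EIF4A1, the host of SNORD10, was in every cell and higher in fixed cells of both lines, with log2 ratios of 0.56 and 0.42. SNORA58 (MRPL3), SNORA4 (EIF4A2), SNORA27 (RPL21) and SNORD3B-1, one of the near-identical U3 genes whose reads cannot be assigned to a single copy, were seen in a larger share of HepG2 cells too, by means of 19.3, 14.8, 10.7 and 18.6 points over both treatments. SNORD3A, another U3 gene, lay the other way, in 72.5% of live and 44.6% of fixed HCT-116 cells against 48.5% and 15.7% in HepG2. SNORA27 was 2-fold higher in live HepG2 cells (log2 ratio 1.07) and not in fixed ones (-0.85).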

How the data were processed

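Smart-seq2 libraries of 334 single cells were used. A further 12 labelled cells had no column. The submitters' processing notes name FastQC, kallisto 0.46.0 and the GRCh38 build. TPM values of the authors are per gene (tximport sums over transcripts), in a table for each line. The transcript tables deposited beside them hold CPM, not divided by length, and their steps give total reads per cell to 0.1 M. Columns name a group but no labelled cell. All columns were used.

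Members and lists were chosen with earlier results of these data known. Named members were, per class, the most widely seen, those with the largest differences in share of cells between treatments or lines (the same way in both), and those 2-fold different in both lines. One member that this rule named is not reported here. Log2 ratios used mean TPM with 1 added. Shares carry exact (Clopper-Pearson) 95% intervals. For a share of 0 the limit is 3 counts of the cells. Kallisto spreads ambiguous reads over transcripts, so members within host exons are uncertain. The position of members was read from RefSeq and GENCODE release 44. Alternatives changed the detection limit, filter, pseudocount, summary, scaling, unit, cells and depth. Python 3.11.15, pandas 2.3.3, NumPy 2.4.6, SciPy 1.17.1, Biopython 1.88, pysam 0.24.0 and matplotlib 3.10.9 were used. The ratio step was tested on simulated data.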

Additional observations from a re-analysis of the deposited data

Results flagged for a closer look

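In all, 3 of 193 members were at least 2-fold higher in fixed than in live HCT-116 cells and at least 2-fold lower in HepG2. The difference between the lines was not tested, and the share of all genes with such opposite ratios was not computed. Of all genes, 0.413% were 2-fold higher in HCT-116 and 3.12% were 2-fold lower in HepG2. With the mean of log2(TPM + 1) as the summary, 0 members were 2-fold higher in HCT-116, so none of the 3 passed. SNORA24, in an exon of SNHG8, had log2 ratios of 1.09 and -1.08, and was seen in 37.4% of live and 50% of fixed HCT-116 cells and in 25% and 16.9% of HepG2 cells. SNORD11, in an intron of NOP58, had 1.55 and -1.67, with 17.6% and 21.7%, and 45.6% and 18.1% of the cells. SNORD33, in an intron of RPL13A, had 1.15 and -1.39. It was seen in 9.89% of live and 6.52% of fixed HCT-116 cells and in 10.3% and 3.61% of HepG2 cells, and 1 fixed HCT-116 cell was at 712 TPM.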

How the results depend on the processing

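Of 180 recomputed values over groups, 41 moved and 2 reversed, and of 837 log2 ratios of named members 808 stayed close and 29 moved. A member's ratio counted as close if it changed by less than the SD over cells of its log2(TPM + 1). That limit is wide for members absent from many cells, so a ratio that shrank towards 0 can count as close. Leaving out SNORA109 or members sharing a stretch of 31 bases, and adding 0.02 to CPM, were chosen after seeing the data. The reversed values were the summed SNORA differences on CPM, 0.042 in HCT-116 and 0.045 in HepG2, against -0.17 (HCT-116) and -0.16 (HepG2) on TPM. In HepG2 the latter was -1.43 without SNORA109 and -1.95 over members sharing no stretch. Thinning to 0.5 M reads gave differences in detected genes of -3.15 (SNORA) and -5.41 (SNORD) in HCT-116 and -5.07 (SNORD) in HepG2. Counts of members past 2-fold moved most. With 1 added to CPM, more than most members' means, 0 members passed in either direction in HCT-116, and 1 SNORA and 1 SNORD were lower and 0 higher in HepG2. With the mean of log2(TPM + 1), 0 were higher in HCT-116, and in HepG2 16 SNORA and 32 SNORD were lower and 0 and 1 higher. Among members in at least 10% of columns, 3 SNORA and 4 SNORD were higher in HCT-116, 0 and 3 in HepG2, and 21 and 29 lower in HepG2. Among members sharing no stretch, 11 SNORA and 21 SNORD were lower in HCT-116, 23 and 28 in HepG2, and 0 and 4 higher in HepG2, with fewer members counted. Median ratio scaling left 2 SNORA higher in HCT-116, and 0 SNORA and 5 SNORD in HepG2. Without ribosomal RNA genes, 36 SNORA were lower and 5 SNORD higher in HCT-116 and 0 SNORA higher in HepG2. With no filter, 13 SNORD were higher in HCT-116 and 5 SNORA in HepG2. With cells paired on total reads 4 SNORA, and on CPM with 0.02 added 2 SNORA, were higher in HepG2. Other causes of these shifts were not tested. No paired analysis was possible because the columns carry none of the numbers that the labels give to cells. With 1 sample per group there is no replicate check, and members held few reads per cell.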
